A study of Mus musculus with 4 samples.

Results

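ELAVL, CELF and RBFOX proteins are sequence-specific RNA-binding proteins, and the transcripts of 10 of their genes were followed here: Elavl1, Elavl2, Elavl3, Elavl4, Celf1, Celf2, Celf4, Rbfox1, Rbfox2 and Rbfox3. They were taken by gene name from the array design, which lists 34821 gene names, and they have 24 of its 55681 distinct probes (7 ELAVL, 10 CELF and 7 RBFOX). The arrays measured RNA that came down with an antibody against CPEB3 or with control IgG, both bound to beads and held for 3 h in lysate of cortex and hippocampus. The lysate came from 8-week-old male C57BL/6 mice. Each antibody had 2 arrays, and no array of the lysate itself was analysed here, so each value compares CPEB3 IgG with control IgG. The labels do not tell if the arrays of an antibody stand for separate mice, so a p-value here reflects the scatter of these 4 samples alone, and that scatter may be technical.

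ELAVL proteins bind U-rich and AU-rich stretches of RNA and are known to stabilise transcripts and alter their splicing. Elavl1 encodes HuR, made in most cells, whereas Elavl2, Elavl3 and Elavl4 encode HuB, HuC and HuD of neurons. CELF proteins bind UGU-rich RNA and act in splicing, decay and translation. RBFOX proteins regulate neuronal splicing through the element UGCAUG, and RBFOX3 is the neuronal nuclear antigen NeuN. CPEB3, the precipitated protein, is a translational regulator that binds U-rich elements in 3′ untranslated regions and acts at synapses.

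Because CPEB3 binds U-rich RNA and probes of the same gene gave different answers, the stretches below are shown for probes of Elavl2, Celf2 and Rbfox3 that differed within the gene and for the probe richest in T. Each is the 30-base stretch of its 60-base probe that holds most T, as the array files list it, 5′ to 3′, with T for U and runs of 3 or more T in capitals. Coordinates are on mm9, minus strand for all 8, and the number after the gene is the probe's position in nucleotides along the transcript that the array design names.
Elavl2 1535, chr4:90920022-90920051: aTTTgtgactatgacaaactatgatgaggc
Elavl2 3538, chr4:90917990-90918019: tacattatcTTTgcagttgcTTTgagTTTT
Celf2 1664, chr2:6468156-6468185: aaacgcttgaaggtgcagctgaaacgctcc
Celf2 3647, chr2:6465913-6465942: agtcttaaggtcttaatgttaTTTgttgat
Celf2 6591, chr2:6462960-6462989: ttaTTTTTgtaatgtatgttattgtgtgat
Rbfox3 1461, chr11:118357695-118357724: tcttgtccgTTTgcttccagggtcgtgtat
Rbfox3 4452, chr11:118351136-118351165: cTTTcttaccattctgtatgcttccacggt
Rbfox2 2056, chr15:76914299-76914328: gTTTTTTgggggTTTTTTgTTTTgTTTTTT
The Celf2 stretches hold 5, 15 and 18 T in order of position and the Elavl2 stretches 9 and 16. The Rbfox3 stretches shown hold 13 each and the Rbfox2 stretch 22. That of Rbfox3 1016, not shown, holds 8. Whether a probe lies in a coding exon or an untranslated region of mm9 was not analysed here.

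A clear signal over background was seen on all 4 arrays for 23 of the 24 probes, and these were tested. With CPEB3 IgG, 10 of the 23 were higher, 5 were lower and 8 did not pass the test, which was limma at an adjusted p of 0.05 over all 40616 probes fitted. Among all fitted probes, 15.8% were higher and 18.9% were lower (34.7% in either direction). Levels are log2 of the processed spot intensity minus the array's 75th percentile, and a difference is CPEB3 IgG minus control IgG on that log2 scale, given with its standard error. The median difference of the 23 was 0.46 (range -1.63 to 2.87), beside -0.19 for all probes. Of the 23 probes, 13 had both CPEB3 IgG arrays above both control arrays and 7 had them below, where 28.6% and 42.7% of all probes did (71.3% in either direction). By family, 4 of 7 ELAVL probes were higher and 1 lower. Of the 9 tested probes of Celf1, Celf2 and Celf4, 5 were higher and 1 lower. Of the 7 RBFOX probes, 1 was higher and 3 lower. Celf3, Celf5 and Celf6 were not among the members and were read in the wider list below. At the brightest probe of each gene, 6 of the 10 genes were higher and 1 lower, where 18.2% and 18.5% of all genes were. Elavl2 and Rbfox3 count as higher there, although each was also called lower elsewhere on its transcripts.

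**Figure D1:**
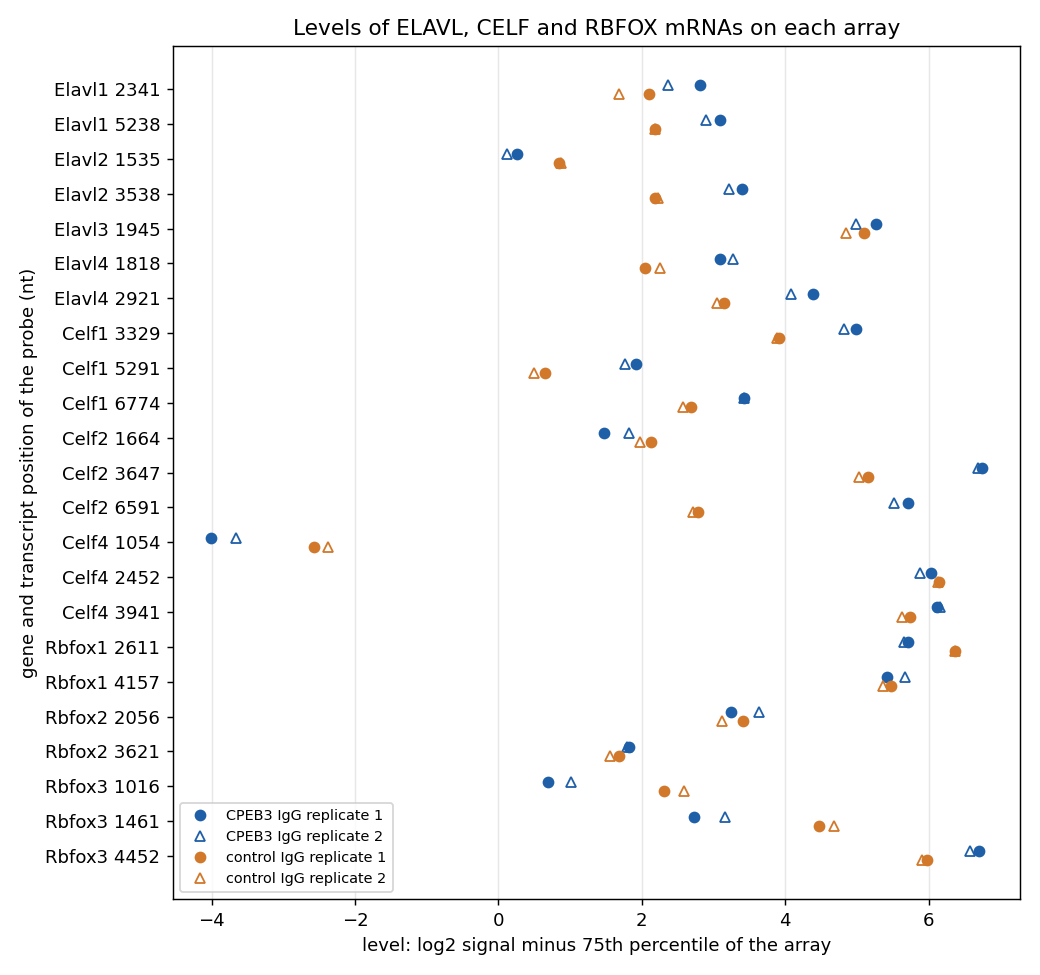
Level of each tested probe on each of the 4 arrays, as log2 intensity minus the array's 75th percentile, by gene and transcript position, with CPEB3 IgG in blue, control IgG in orange, circles for replicate 1 and triangles for replicate 2. The antibodies lie furthest apart at Celf2 6591, where the CPEB3 IgG arrays read 5.71 and 5.52 and the control arrays 2.78 and 2.71; levels of different probes cannot be ranked against each other.

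Elavl4 was higher with CPEB3 IgG at both of its probes. At position 2921 (chr4:109877455-109877514, minus strand) the levels were 4.38 and 4.09 with CPEB3 IgG, against 3.14 and 3.06 with control IgG, a difference of 1.13 ± 0.19 or 2.20-fold (95% interval 1.55 to 3.10, limma adjusted p = 0.0155). At position 1818 (chr4:109878558-109878617) the levels were 3.09 and 3.27 against 2.04 and 2.25, a difference of 1.03 ± 0.18 or 2.04-fold (1.46 to 2.85, limma adjusted p = 0.0176). Both CPEB3 IgG arrays stood above both control arrays at each probe. Each call was lost without CPEB3 IgG replicate 1 or 2 or 1 of the controls (replicate 2 for position 2921 and replicate 1 for 1818), where the differences ran from 0.99 to 1.28 and from 0.93 to 1.13 over all 4 omissions.

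Elavl2 gave opposite answers at its 2 probes. At position 3538 (chr4:90917989-90918048, minus strand) the levels were 3.40 and 3.22 with CPEB3 IgG, against 2.18 and 2.23 with control IgG, so the probe was higher by 1.1 ± 0.17 or 2.15-fold (1.58 to 2.93, limma adjusted p = 0.0129). At position 1535 (chr4:90919992-90920051) the levels were 0.25 and 0.12 against 0.85 and 0.87, so the probe was lower, with a difference of -0.67 ± 0.16 or 1.59-fold (1.18 to 2.14, limma adjusted p = 0.0377). The antibodies did not overlap at either probe. The higher call was lost without either CPEB3 IgG replicate (1.01 to 1.20 over the 4 omissions). The lower call was lost without any 1 of the 4 arrays (-0.73 to -0.60) and with scaling on the spike-in probes, where the difference was -0.015.

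Elavl1 was higher at position 5238 (chr8:4285514-4285573, minus strand), with levels of 3.10 and 2.89 against 2.19 and 2.19, a difference of 0.81 ± 0.17 or 1.75-fold (1.28 to 2.39, limma adjusted p = 0.0271). That call was lost without any 1 of the 4 arrays (0.70 to 0.91). Its probe at position 2341 (chr8:4288411-4288470) read 2.81 and 2.37 against 2.11 and 1.68, with CPEB3 IgG above control on both arrays, and the difference of 0.69 ± 0.26 did not pass the test (limma adjusted p = 0.104). It was called higher with the normexp correction (0.66, limma adjusted p = 0.0469) and with the replicate number as a block (limma adjusted p = 0.0394). Elavl3 has 1 probe, at position 1945 (chr9:21822471-21822530, minus strand), with levels of 5.27 and 4.99 against 5.10 and 4.85. There the antibodies overlapped, and the difference was 0.15 ± 0.20 (95% interval -0.38 to 0.69, limma adjusted p = 0.581). Whether Elavl3 differed from Elavl4 in this respect was not tested.

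Celf2, which encodes a splicing and stability regulator of brain and heart, held the highest differences of the 23 probes. At position 6591 (NM_010160, chr2:6462956-6463015, minus strand) the levels were 5.71 and 5.52 with CPEB3 IgG, against 2.78 and 2.71 with control IgG, a difference of 2.87 ± 0.17 or 7.33-fold (5.36 to 10.0, limma adjusted p = 0.00527). At position 3647 (chr2:6465900-6465959) they were 6.75 and 6.69 against 5.15 and 5.03, a difference of 1.63 ± 0.16 or 3.09-fold (2.30 to 4.15, limma adjusted p = 0.00599). These were the 2 member probes that stayed higher under every alternative run, each omission of an array included, with differences of 2.78 to 3.53 and of 1.57 to 2.28. At position 1664 (chr2:6468126-6468185) the levels were 1.48 and 1.82 against 2.13 and 1.98, below control on both arrays but short of the threshold (-0.40 ± 0.20, limma adjusted p = 0.184; 0.25 with spike-in scaling). The remaining probe, designed to an Ensembl transcript (position 348, chr2:6585051-6585110), was not well above background on any array and was not tested.

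Celf1, a widely made member of the family, was higher at all 3 probes. The levels at position 5291 (chr2:90857133-90857192, plus strand) were 1.92 and 1.76 against 0.65 and 0.50, a difference of 1.26 ± 0.17 or 2.4-fold (1.75 to 3.29, limma adjusted p = 0.0102). The levels at position 3329 (chr2:90855171-90855230) were 4.99 and 4.83 against 3.91 and 3.88, a difference of 1.01 ± 0.16 (limma adjusted p = 0.0150). The levels at position 6774 (chr2:90858616-90858675) were 3.43 and 3.43 against 2.68 and 2.58, a difference of 0.80 ± 0.16 (limma adjusted p = 0.0235). The antibodies did not overlap at any of the 3. The call at 5291 was lost without CPEB3 IgG replicate 1 (1.18 to 1.34 over the 4 omissions), and those at 3329 and 6774 without any 1 array (0.93 to 1.09 and 0.75 to 0.85).

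Celf4, whose product is made mainly in excitatory neurons, had no probe that was called higher in these values, though 1 was under 3 alternatives. The probes at positions 2452 (chr18:25637616-25637675, minus strand) and 3941 (chr18:25636127-25636186) gave differences of -0.18 ± 0.16 (limma adjusted p = 0.442) and 0.46 ± 0.16 (limma adjusted p = 0.0895). The first of these turned positive with quantile, median and spike-in scaling, at 0.06, 0.11 and 0.48. The second was called higher with quantile scaling (0.68, limma adjusted p = 0.0360), median scaling (0.75, 0.0384) and an intensity trend in limma (0.46, 0.0344). The levels there were 6.04 and 5.88 against 6.15 and 6.13, and 6.12 and 6.16 against 5.74 and 5.63, so control stood above CPEB3 IgG at 2452 and below it at 3941. A dim probe to another transcript variant (position 1054, chr18:25837525-25837584) read -4.0 and -3.66 against -2.58 and -2.38 and was lower by 2.56-fold (1.75 to 3.74, limma adjusted p = 0.0128). That call was lost with the normexp background correction (-0.51) and spike-in scaling (-0.70), and without CPEB3 IgG replicate 1 (-1.53 to -1.18 over the 4 omissions).

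**Figure D2:**
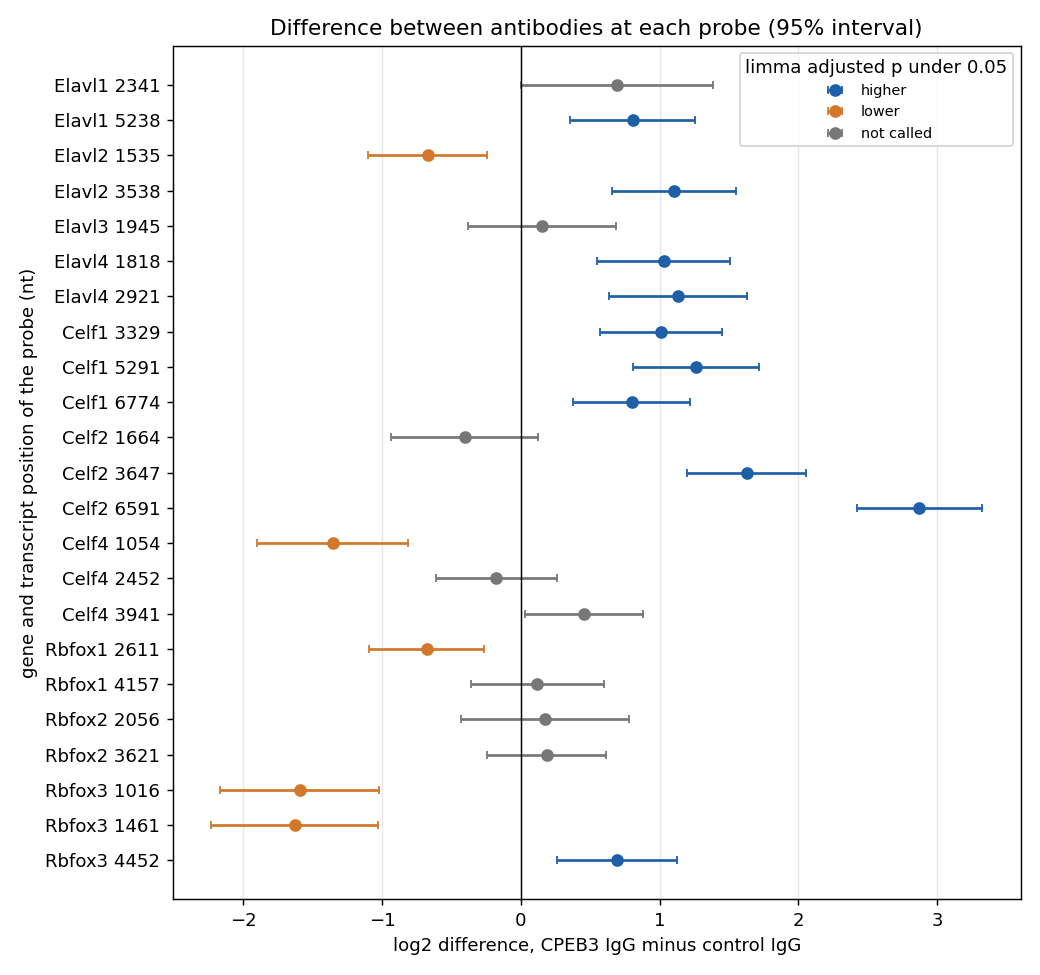
Difference of CPEB3 IgG minus control IgG on the log2 scale for each of the 23 tested probes, with 95% intervals from limma, in blue where higher, orange where lower and grey where not called. The 10 higher probes run up to 2.87 at Celf2 6591 and the 5 lower ones down to -1.63 at Rbfox3 1461; the median of all probes is -0.19.

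Rbfox3 also had probes that changed in opposite directions. At position 1461 (chr11:118357666-118357725, minus strand) the levels were 2.73 and 3.16 with CPEB3 IgG, against 4.47 and 4.68 with control IgG, so the probe was lower by 3.09-fold (2.04 to 4.69; difference -1.63 ± 0.22, limma adjusted p = 0.0106). The probe at position 1016 of another transcript variant read 0.69 and 1.02 against 2.30 and 2.59 and was lower by 3.02-fold (2.03 to 4.48; -1.59 ± 0.21, limma adjusted p = 0.010). By the coordinates in the files this second lower probe lies next to, and 3′ of, the higher probe that follows. At position 4452 (chr11:118351107-118351166) the levels were 6.70 and 6.57 against 5.98 and 5.91, so the probe was higher by 0.70 ± 0.16 or 1.62-fold (1.20 to 2.19, limma adjusted p = 0.0353). All 3 probes had non-overlapping antibodies. The lower calls were lost with spike-in scaling, at -0.97 and -0.94, and without CPEB3 IgG replicate 1 (-1.85 to -1.41 and -1.76 to -1.43 over the 4 omissions). The higher call was lost without any 1 array (0.63 to 0.76).

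Rbfox1 was lower at position 2611 (chr16:7409998-7410057, plus strand), where the levels were 5.72 and 5.66 against 6.36 and 6.37, a difference of -0.68 ± 0.15 or 1.60-fold (1.20 to 2.13, limma adjusted p = 0.0336). That call was lost in 9 alternatives, among them each omission of an array (-0.71 to -0.65) and spike-in scaling, where the difference was -0.025. At position 4157 (chr16:7411544-7411603) the levels of 5.42 and 5.67 overlapped those of 5.48 and 5.37 with control IgG (0.12 ± 0.18, limma adjusted p = 0.634). Rbfox2, the member of the family made outside neurons as well, did not pass the test at either probe. Its levels at position 2056 (chr15:76914284-76914343, minus strand) were 3.25 and 3.63 against 3.42 and 3.11, and at position 3621 (chr15:76912771-76912830) 1.82 and 1.80 against 1.68 and 1.56. The antibodies overlapped at the first only, and the differences were 0.17 ± 0.22 (limma adjusted p = 0.583) and 0.19 ± 0.16 (limma adjusted p = 0.405).

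The unequal answers within a gene were tested directly, as the most 3′ probe's level minus the most 5′ probe's on each array, compared between the antibodies. A shift of a whole array cancels in this value. Among 9 member genes with at least 2 fitted probes, 3 passed the test (limma adjusted p of 0.05 over 8188 genes), all with the 3′ probe more positive with CPEB3 IgG. Over all 8188 genes the 3′ probe was more positive in 15.9% and more negative in 3.07% (19% in either direction), and the median was 0.30. In Celf2 the 3′ minus 5′ value was 4.23 and 3.70 with CPEB3 IgG, against 0.65 and 0.73 with control IgG, a difference of 3.28 ± 0.27 (95% interval 2.54 to 4.01, limma adjusted p = 0.0179). In Elavl2 it was 3.15 and 3.09 against 1.34 and 1.36, a difference of 1.77 ± 0.19 (1.25 to 2.29, limma adjusted p = 0.0179). In Celf4 it was 10.1 and 9.82 against 8.31 and 8.01, a difference of 1.81 ± 0.24 (1.15 to 2.48, limma adjusted p = 0.0228), and with the normexp correction it fell to 0.98, still called. In Celf2 and Celf4 the paired probes were designed to different transcript variants. The antibodies did not overlap in any of the 3 genes, which are those that passed the test. The share of all pairs without overlap was not analysed.

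The other 6 pairs did not pass. Rbfox1 had a difference of 0.80 ± 0.22 (0.19 to 1.41, limma adjusted p = 0.0803), and it passed with the normexp correction (0.80, limma adjusted p = 0.0327). Elavl1 and Elavl4 each had 0.11 (intervals -0.59 to 0.81 and -0.65 to 0.86), Rbfox2 0.014 (-0.66 to 0.69) and Celf1 -0.21 (-0.76 to 0.33). In Rbfox3 the pair chosen by coordinates gave 0.034 ± 0.19 (limma adjusted p = 0.920), but its 3′ probe was the one at position 1016, for which the array files give coordinates of 34 bases (chr11:118351074-118351107) rather than 60. With pairs limited to probes that span 60 bases, an alternative chosen after seeing the data, Rbfox3 4452 against 1461 gave 3.98 and 3.41 with CPEB3 IgG, against 1.51 and 1.23 with control IgG. That difference was 2.32 ± 0.29 (1.52 to 3.13, limma adjusted p = 0.0228), where 14.5% of 7611 such pairs were more positive and 3.02% more negative. Leaving out 1 array ended the calls of Elavl2 (1.75 to 1.80), Celf4 (1.66 to 1.97) and the added Rbfox3 pair (2.04 to 2.61) each time. The call of Celf2 ended in 3 of the 4 omissions (3.01 to 3.54), being kept without control IgG replicate 2. With no filter on dim probes, Celf4 and the added Rbfox3 pair did not pass, and the Celf2 pair was not evaluated. In the fits without 1 array the calls fell over all genes as well, so their loss there is not particular to the members.

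**Figure D3:**
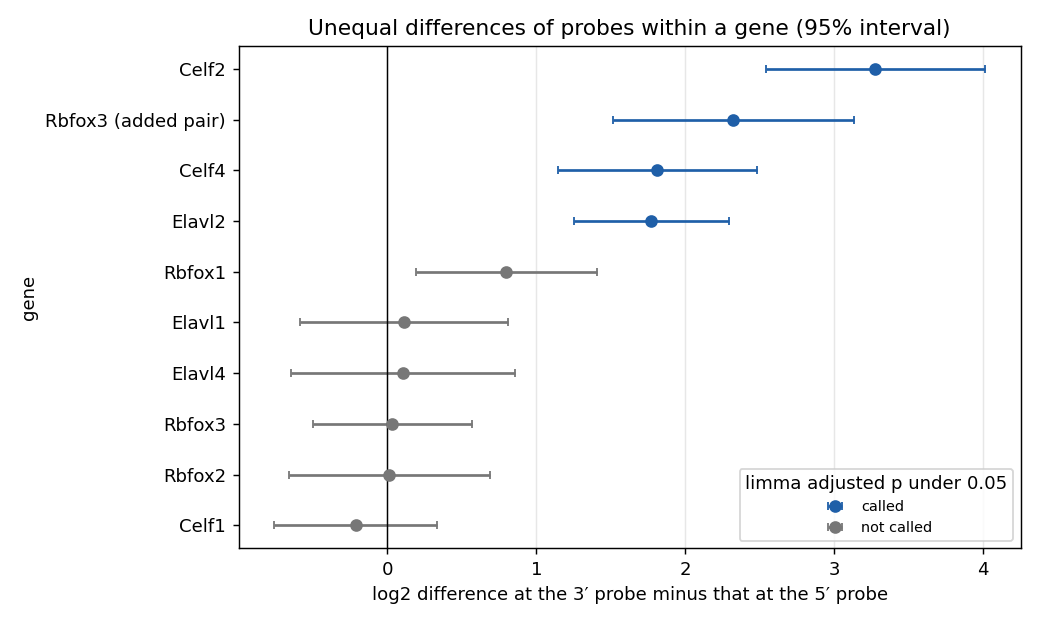
Difference at the most 3′ probe minus that at the most 5′ probe, log2 scale, for each member gene with a pair, with 95% intervals from limma, in blue where it passed the test and grey where not; the Rbfox3 pair of 60-base probes is marked as added. The values run from -0.21 in Celf1 to 3.28 in Celf2, and the 4 called ones are all positive.

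Across the 23 tested probes the difference was more positive further along the transcript, with Pearson's r = 0.73 and Spearman's rho = 0.69 against position. The same relation over 22992 fitted probes of RefSeq transcripts had r = 0.30 and rho = 0.35. These values describe the arrays: probes of a gene share its RNA and all share the same 4 libraries. Of the 11 member probes beyond position 3000, a limit chosen after the values were seen, 8 were higher, 0 lower and 3 did not pass, with a median of 0.81. Of the 12 before it, 2 were higher (Elavl4 1818 and 2921), 5 lower and 5 did not pass, with a median of -0.29. Both descriptions count Rbfox3 1016 by its position in its own variant, although its coordinates put it 3′ of Rbfox3 4452. Without it, a choice made after seeing the data, r was 0.70 and rho 0.65 over 22 probes, and of the 11 before position 3000, 2 were higher and 4 lower, with a median of -0.18. Among all RefSeq probes 37.6% were higher and 9.53% lower beyond that limit, and 16.1% and 23.9% before it. The part of probe sequence in this relation was not tested.

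**Figure D4:**
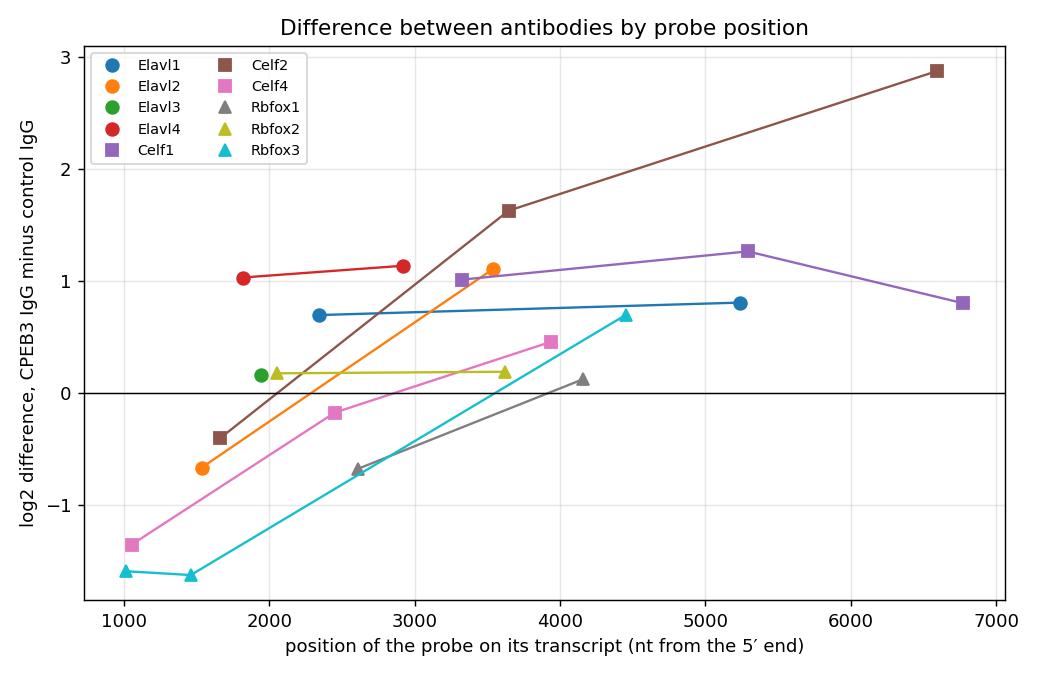
Difference of CPEB3 IgG minus control IgG on the log2 scale against the probe's position along its transcript, in nucleotides, for the 23 tested probes, coloured by gene, with circles for ELAVL, squares for CELF and triangles for RBFOX and lines joining probes of a gene. All 5 lower probes lie before position 3000 and 8 of the 10 higher ones lie beyond it.

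The probe sequences of the members were richer in T than most, with a median of 35.8% (range 13.3% to 60%) beside 28.3% for all probes (quartiles 23.3% and 33.3%). T content and the difference had r = 0.44 and rho = 0.51 over the 23 probes, and r = 0.32 over all RefSeq probes. The Rbfox2 probe at 2056, with 60% T, was among those that did not pass. Elements were searched by their letters in the 60-base probes as listed, where matches of TTTTT and TTTTAT can overlap each other. TTTTAT was in 1 of the 24 probes (Rbfox3 1461, lower) and in 3.69% of all probes, and TTTTAAT was in 0 and 0.912%. TTTTT was in 5 probes and 10.2% of all: Celf2 6591, Elavl1 5238, Elavl4 1818 and both Rbfox2 probes, of which the first 3 were higher. TGTGTG was in 3 probes, Celf1 5291, Celf2 6591 and Elavl4 2921, all higher, and in 3.33% of all. The share of higher calls among all probes that hold a given element was not analysed. A link of an element to the calls was therefore not tested. AATAAA, the letters of the polyadenylation signal, was in 2 probes (Celf1 5291 and Celf4 3941) and 10.1% of all, ATTTA in 1 and 7.71%, and GCATG in 0 and 4.71%. Read on the opposite strand, TTTTT was in 4 of the 24 probes (10.7% of all), ATTTA in 2 (9.67%) and GCATG in 1 (4.92%), and the other elements were in 0. A match within a probe is a description of its letters, and the rest of each transcript was not searched.

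A wider list of 28 genes of related sequence-specific RNA-binding proteins was read at the brightest probe of each gene. It held NOVA, PTBP, MBNL, KHDRBS, Musashi, ZFP36 and other genes, and the CELF genes left out above. Among these, Celf5 was higher by 1.16 ± 0.16 (limma adjusted p = 0.0111), while Celf3 (-0.06) and Celf6 (-0.20) did not pass. At their other probes Celf6 was lower (-1.15) and Celf5 did not pass (-0.40 and -0.36). Of the 28, 15 were higher, 3 lower and 10 did not pass, with a median difference of 0.93 beside -0.14 for the brightest probes of all genes, of which 18.2% were higher and 18.5% lower. Over all 47 tested probes of the list, 19 were higher and 9 lower, where 15.8% and 18.9% of all probes were. Rbm24, a splicing regulator of muscle, had levels of 4.10 and 4.08 against 1.40 and 1.51 and was higher by 2.64 ± 0.16 or 6.22-fold (limma adjusted p = 0.00527). Ptbp1, the splicing repressor of non-neuronal cells, was higher by 2.09 ± 0.17 (limma adjusted p = 0.00528) and by 0.98 ± 0.21 at its second probe. Hnrnpd, which encodes the AU-rich element binding protein AUF1, was higher by 2.06 ± 0.17 (limma adjusted p = 0.00535). The calls of these 3 genes at their brightest probe held under all alternatives run, and the second Ptbp1 probe had an adjusted p of 0.0309 from limma. Zfp36, which encodes the decay factor tristetraprolin, was higher by 2.34 ± 0.60 (limma adjusted p = 0.0441), with 1 control array not well above background. The call was lost with no filter on dim probes and without all but control IgG replicate 2 (1.65 to 3.03 over the 4 omissions), and with the normexp correction the difference was 0.75, still called.

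The 3 lower genes were Khdrbs2, which encodes the splicing factor SLM1 (-0.92 ± 0.17, limma adjusted p = 0.0220), Srrm3, a regulator of microexons (-0.87 ± 0.17, and -0.98 at its second probe), and Mbnl2, a Muscleblind splicing factor (-0.81 ± 0.17). The other two Mbnl2 probes differed by -1.06, which passed, and 0.30, which did not. These 3 calls were lost with median scaling, spike-in scaling, no scaling, no filter on dim probes and without any 1 array, with ranges over the omissions of -1.04 to -0.80, -0.96 to -0.77 and -0.90 to -0.73.

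The 75th percentile of intensity ran from 353 to 507 over the 4 arrays, 68.0% to 73.4% of probes were well above background and 0 spots were saturated. Arrays of the same antibody correlated at 0.986 and 0.977 across probes, and those of different antibodies at 0.925 to 0.939. The antibodies lay in different positions of 1 slide, so position and antibody cannot be told apart. Scaling mattered for direction: 45.5% of all calls were higher in the values above, 66.2% after median scaling and 85.1% after scaling on the spike-in probes, which moved the median of all probes from -0.19 to 0.10 and 0.46. The member calls were then 11 higher and 3 lower, and 7 higher and 0 lower. Median scaling ended the lower calls of Elavl2 1535 and Rbfox1 2611, with differences of -0.38 and -0.39. Spike-in scaling ended all 5 lower calls and the higher calls of Celf1 6774, Elavl1 5238 and Rbfox3 4452, the latter with larger differences of 1.45, 1.46 and 1.35. With no scaling, the calls kept were the higher ones of Celf2 3647, Celf2 6591 and Celf1 5291 and the lower ones of Celf4 1054 and Rbfox3 1016 and 1461. With no filter on dim probes, Celf1 6774, Elavl1 5238, Elavl2 1535, Rbfox1 2611 and Rbfox3 4452 were no longer called, with the same differences and an adjustment over 55618 probes. All 5 neuronal markers (Snap25, Syt1, Slc17a7, Gad1 and Tubb3) gave signal over background on each array, with 1, Tubb3, lower by 1.15. Their summed level was 7.65 to 7.79 with CPEB3 IgG, against 7.88 to 7.95 with control IgG. All 4 astrocyte, 4 oligodendrocyte, 4 microglial and 3 endothelial markers were also above background, with 1 astrocyte gene (Aldh1l1, -3.03) and 1 microglial gene (Aif1, -2.34) lower. The summed astrocyte level was 3.48 to 3.76 against 4.98 to 5.29. The median difference of the 4 astrocyte genes was -0.15, with Gfap at -0.80, Aqp4 at 0.57 and Slc1a2 at 0.49, none of them called. For microglia the sum was 3.78 to 4.27 against 4.55 to 4.74. Its other genes, Csf1r at -0.50, Cx3cr1 at -0.35 and Tmem119 at 0.24, were not called. The oligodendrocyte sum was 6.58 to 6.88 against 6.78 to 7.13 and the endothelial 2.30 to 2.67 against 2.13 to 2.4. Of the liver genes, Apoa2 was above background on all 4 arrays, and Alb and Fgb did not pass the filter. These marker values are of RNA recovered with each antibody and not of the lysate itself. Recovery, cell number and RNA per cell cannot be told apart in them. The part of each in the member values was not tested.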

How the data were processed

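RNA precipitated with CPEB3 IgG or control IgG was measured on 4 Agilent arrays of 1 colour, 2 per antibody, grouped by the sample titles. The deposited values are spot intensities from Agilent Feature Extraction 10.5.1.1, background-subtracted and detrended within each array, per the file headers, and not scaled between arrays. Control and outlier spots were left out, spots of a probe averaged, log2 taken and each array's 75th percentile subtracted. A probe entered the fit if at least 2 of the 4 arrays read it well above background. Testing used limma 3.58.1 (functions lmFit and eBayes; R 4.3.3), with Benjamini-Hochberg adjustment over all probes and a threshold of 0.05. The number of arrays limits the precision. The same fit was run on the within-gene probe pairs. Every member probe is named, and of the wider list up to 4 called genes per direction by size. Members, lists and markers were chosen with earlier results of these data known. Of the 24 probes, 22 carry a RefSeq accession of the member in the GRCm38.p6 gene table, used for names only, and probe coordinates are those of the files (mm9). The probe fit was tested on simulated data: with 14111 of 40616 probes changed 2.4-fold it recovered 10970 with 440 false calls, and with 200 changed it recovered 0 of 50 at each of 1.5-, 2-, 4- and 8-fold. The alternatives were other background corrections, scalings, filters, thresholds and omissions of an array.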

Additional observations from a re-analysis of the deposited data

How the results depend on the processing

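The number of calls moved with several choices. Member probes called higher numbered 10, and 3 with no scaling, 2 at an adjusted p of 0.01 and fewer than 10 when 1 array was left out. Member probes called lower numbered 5, and 3 with median scaling, no scaling or no filter on dim probes. They were 0 with spike-in scaling or an adjusted p of 0.01, and fewer than 5 without 1 array. The brightest probe of each gene gives a count of 10 genes and not of probes, with 6 higher and 1 lower. Elavl2 and Rbfox3 count as higher in it despite lower calls at their dimmer probes. Of all probes, 6423 were higher and 7688 lower; higher calls were 3937 with no scaling, 2735 at 0.01 and 2348 to 4683 without 1 array, and lower calls 4316 with median scaling, 1096 with spike-in scaling, 4702 with no filter, 2015 at 0.01 and 2077 to 5369 without 1 array. In the wider list, higher genes were 15, 7 at 0.01 and 5 to 14 without 1 array; lower genes were 3, and 0 with median scaling, spike-in scaling, no scaling, no filter, an adjusted p of 0.01 or any array left out. Pairs called numbered 1553, 402 with no filter and 0 to 725 without 1 array.

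Values that did not pass changed sign as follows. The Rbfox2 pair was -0.047 with normexp, -0.030 with quantile and -0.0022 with cyclic loess scaling, the Rbfox3 pair -0.028 with quantile scaling, Celf4 2452 0.062, 0.11 and 0.48 with quantile, median and spike-in scaling, and Celf2 1664 0.25 with spike-in scaling. Without 1 array the Elavl1 pair ranged from -0.10 to 0.32, the Elavl4 pair from -0.13 to 0.34, the Rbfox2 pair from -0.19 to 0.22, the Rbfox3 pair from -0.018 to 0.086, Rbfox1 4157 from -0.0065 to 0.25 and Rbfox2 2056 from -0.017 to 0.36. The cause was not tested. With the replicate number as a block, 11 member probes were higher and 5 lower, 6867 and 8981 of all probes, and 1345 pairs were called, with Elavl1 2341 the member probe gained; same-numbered arrays deviated together (r = 0.36) in only 2 pairs, so the numbers were not taken as pairing the samples. A block for slide or scan was not run, because all arrays share 1 slide and 1 scan. With 2 arrays per antibody, changes below about the intervals given could not be resolved.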
